A study of Homo sapiens with 10 samples.

Results

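The genes described here encode the subunits, activators, inhibitor and assembly chaperones of the proteasome. They were taken by name from the annotation deposited with the transcript counts: every gene identifier of which any listed symbol is PSM followed by a letter from A to G and a number was included, which gave 48 of 57110 identifiers and 157 transcripts. Long-read nanopore RNA sequencing had been run on 7 human ovarian cancer cell lines, prepared with the LSK-110 ligation kit and an end-repair step of 30 min, to serve as benchmark data for a transcript quantification method. On the PromethION, the larger flow cell instrument, 1 library each was run for COV362, COV504, SK-OV-3, OVTOKO, OVKATE and OVMANA. IGROV-1 had 2 replicate libraries on the PromethION and 2 on the MinION, the smaller one. All are established lines grown without any treatment named in the labels, and nothing in the labels says whether the IGROV-1 replicates came from separate cultures, so p-values measure the spread between these libraries, which may be technical.

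The proteasome is the protease that degrades ubiquitin-tagged proteins. Its barrel-shaped core, the 20S particle, is built from rings of alpha subunits (PSMA genes) and rings of beta subunits (PSMB genes), of which PSMB5, PSMB6 and PSMB7 carry the active sites. The regulatory 19S particle holds ATPases that unfold the substrate (PSMC genes) and non-ATPase subunits that bind and remove ubiquitin (PSMD genes). Interferon exchanges the active beta subunits for PSMB8, PSMB9 and PSMB10, which form the immunoproteasome and favour peptides that fit HLA class I molecules, and raises the PA28 activator made of PSME1 and PSME2.

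Library totals ran from 1729782 to 3666224 estimated counts, and the proteasome genes took 0.716% to 1.08% of a library. Levels are given as CPM, a gene's counts scaled to a library total of 1000000, and are not divided by gene length, so they are compared between libraries and not between genes. Mitochondrial ribosomal RNA took 9.13% and 10.9% of the 2 IGROV-1 PromethION libraries and between 1.01% and 3.31% of the other 8. Of the 48 genes, 45 had at least 1 count in every library. PSMA8 and PSMB11, whose products belong to the proteasomes of testis and thymus, had no count in any library, where a count of 0 allows up to 0.818 to 1.73 CPM depending on the library's total. The remaining gene was PSMB8. In such bulk libraries fewer expressing cells and less RNA per cell cannot be told apart. For 5 genes the deposited identifier also holds another gene: PSMA1, PSMA2, PSMA6, PSMB10 and PSMD9. Their levels below count only the 17 of 30 transcripts annotated to the proteasome gene, which took 59.5% to 67.8% of the joined PSMA1 identifier, 89.0% to 95.4% of that of PSMA6 and nearly all of the other 3, while their tests use the deposited identifiers. The 30 identifiers named as pseudogenes of these genes summed to at most 1.71 CPM in any library. As a check on cell type, 6 epithelial markers were read. KRT8 and KRT18, keratins of epithelial cells, were detected in all 10 libraries. KRT8 was low in IGROV-1, at 5.15 to 11.4 CPM, against 134 to 3274 CPM in the other lines. IGROV-1 had KRT19 at 140 to 177 CPM, while KRT7 and CDH1 were at 0 in all 4 of its libraries and EPCAM reached at most 1.54 CPM. OVTOKO was low in KRT19 (0.578 CPM), CDH1 (2.31 CPM), EPCAM (8.67 CPM) and KRT7 (14.5 CPM). CDH1 was also low in COV362 (1.57 CPM) and SK-OV-3 (5.06 CPM). A list of 6 fibroblast markers summed to 435 CPM in COV362, led by COL1A2 (429 CPM). It summed to 364 CPM in SK-OV-3, led by COL1A1 (219 CPM), to 120 CPM in COV504 and to at most 30.2 CPM elsewhere. The sum of 3 endothelial markers was at most 25.8 CPM, in COV504.

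Interferon response elements, built of GAAA blocks with a short gap, are known from the promoters of interferon-induced genes, so the promoter windows of the immunoproteasome and PA28 genes are shown first. RefSeq promoter sequences (GRCh38.p14) matched 42 of the 48 genes, in 51 windows from 250 bases before to 50 bases after a transcription start; PSMA7, PSMB1, PSMB6, PSMB7, PSMD4 and PSMG3 were not matched. A pair of GAAA blocks with 2 bases of any kind between them, searched on both strands, was found in windows of 7 of the 42 genes (16.7%) and of 4.38% of all 27305 genes in the table. The 7 were PSMB8, PSMB10, PSME1, PSME2, PSMG4, PSMA4 and PSMB4. In the first 5 of these the matched letters read GAAAGCGAAA on one strand. Below are 200 bases before to 15 bases after each start, with the GAAA pair, TTCNNNGAA (the interferon gamma activated type, its own reverse complement) and TGACNNNGC (the type bound by NFE2L1, the factor that raises proteasome genes when the proteasome is inhibited) in capitals.

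PSMB8 upstream start, chr6:32844665-32844879, minus strand: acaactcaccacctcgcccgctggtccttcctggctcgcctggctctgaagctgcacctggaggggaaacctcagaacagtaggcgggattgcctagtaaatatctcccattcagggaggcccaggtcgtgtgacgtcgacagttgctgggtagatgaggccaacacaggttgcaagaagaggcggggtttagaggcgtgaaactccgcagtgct
PSMB8 downstream start, chr6:32844033-32844247, minus strand: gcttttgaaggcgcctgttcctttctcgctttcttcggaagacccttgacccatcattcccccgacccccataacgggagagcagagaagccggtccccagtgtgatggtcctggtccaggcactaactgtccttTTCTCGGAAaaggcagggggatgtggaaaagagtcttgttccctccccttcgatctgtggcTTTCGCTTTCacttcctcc
PSMB10, chr16:67936836-67937050, minus strand: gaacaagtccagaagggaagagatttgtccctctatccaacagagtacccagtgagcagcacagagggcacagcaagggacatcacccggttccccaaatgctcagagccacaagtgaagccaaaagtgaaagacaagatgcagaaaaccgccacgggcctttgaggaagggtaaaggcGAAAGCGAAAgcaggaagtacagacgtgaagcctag
PSME1, chr14:24135994-24136208, plus strand: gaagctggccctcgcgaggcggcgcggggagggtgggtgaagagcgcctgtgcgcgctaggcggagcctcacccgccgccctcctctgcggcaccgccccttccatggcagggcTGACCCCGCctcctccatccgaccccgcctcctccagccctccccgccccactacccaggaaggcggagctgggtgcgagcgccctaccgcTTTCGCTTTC
PSME2, chr14:24146596-24146810, minus strand: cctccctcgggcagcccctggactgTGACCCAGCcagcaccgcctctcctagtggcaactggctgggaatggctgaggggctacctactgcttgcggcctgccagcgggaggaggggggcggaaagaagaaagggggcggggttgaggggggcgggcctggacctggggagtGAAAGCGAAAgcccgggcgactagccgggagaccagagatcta
PSMB9, chr6:32853992-32854206, plus strand: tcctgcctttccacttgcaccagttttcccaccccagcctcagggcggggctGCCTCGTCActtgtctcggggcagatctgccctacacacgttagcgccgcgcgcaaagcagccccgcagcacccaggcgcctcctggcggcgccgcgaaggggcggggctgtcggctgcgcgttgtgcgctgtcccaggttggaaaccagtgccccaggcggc

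The match lay across the downstream start of PSMB8, 21 to 12 bases before the start of PSMB10, 28 to 19 bases before that of PSME2 and just after that of PSME1. The upstream PSMB8 start had none of the 3 letter patterns. The shown PSMB9 window held TGACNNNGC but neither interferon pattern. Over all the matched proteasome genes, TGACNNNGC was found in windows of 15 of 42 (35.7%, against 16.1% of all genes), TTCNNNGAA in 8 (19.05%, against 9.38%) and CCAAT, the NFY motif, in 20 (47.6%, against 39.7%). These are matches of letters in a fixed window and no binding was measured.

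The immunoproteasome genes separated IGROV-1 from the other 6 lines. PSMB8 (chr6:32840717-32844703, minus strand), which carries the chymotrypsin-like site of the immunoproteasome, stood at 246 CPM in OVTOKO, 199 in SK-OV-3, 185 in COV504, 177 in COV362, 68.7 in OVKATE and 49.2 CPM in OVMANA. In IGROV-1 it stood at 0.427 and 0 CPM on the PromethION and at 0 and 0.309 CPM on the MinION, which is 1 estimated count per instrument. Thus all 4 IGROV-1 libraries lay at the detection limit and all 6 other lines lay far above it. The ratio to the 1 count of the IGROV-1 PromethION libraries was 230 in OVMANA (exact 95% interval 40.2 to 9163, for counting error only) and 1147 in OVTOKO (205 to 45417). Each of the 6 lines was called higher by edgeR's quasi-likelihood test with Benjamini-Hochberg adjustment over all 13030 genes, with adjusted p from 2.14e-06 to 2.3e-05; these 6 comparisons share the IGROV-1 libraries and each rests on 1 library of the other line.

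PSMB9 (chr6:32844136-32859585, plus strand), the caspase-like counterpart beside PSMB8, stood at 117 CPM in COV504, 62.4 in OVTOKO, 51.7 in COV362, 39.5 in SK-OV-3, 15.5 in OVMANA and 7.42 CPM in OVKATE. The IGROV-1 libraries read 4.70 and 3.01 CPM on the PromethION and 5.46 and 2.47 CPM on the MinION, so the groups did not overlap, with OVKATE only just above IGROV-1. PSMB9 was 28.4-fold higher in COV504 (log2 4.83, SE 0.34, adjusted p = 1.91e-05), 16.9-fold in OVTOKO, 13.7-fold in COV362, 8.64-fold in SK-OV-3 and 4.15-fold in OVMANA, where DESeq2 did not make the call (adjusted p = 0.0862). In OVKATE the difference did not pass (log2 0.64, SE 0.57, adjusted p = 0.386). The gene models of PSMB8 and PSMB9 overlap on opposite strands, and whether the counting used the strand is not given in the sources used here.

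PSMB10 (chr16:67934502-67937087, minus strand), the trypsin-like counterpart, varied less. It stood at 75.2 CPM in OVTOKO, 58.8 in SK-OV-3, 56.9 in OVKATE, 50.5 in COV362, 41.4 in COV504 and 23.5 CPM in OVMANA, against 18.8 and 17.6 CPM in IGROV-1 on the PromethION and 19.4 and 22.2 CPM on the MinION. IGROV-1 was lowest here too, but still clearly expressed the gene, with OVMANA next to it. The gene was called higher in 5 lines, from 2.15-fold in COV504 to 4.35-fold in OVTOKO, and not in OVMANA (log2 0.43, SE 0.25, adjusted p = 0.215). With DESeq2 the PSMB10 call held in OVTOKO and was lost in OVKATE (adjusted p = 0.123), SK-OV-3 (0.104), COV362 (0.0932) and COV504 (0.262).

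The constitutive partners changed less. PSMB5, the constitutive chymotrypsin-like subunit (chr14:23016543-23035230), read 347 and 385 CPM in IGROV-1 on the PromethION and 390 and 401 CPM on the MinION. It read 501 CPM in OVMANA, 412 in OVKATE, 299 in OVTOKO, 243 in SK-OV-3, 213 in COV504 and 200.2 CPM in COV362, so 4 lines lay below all 4 IGROV-1 libraries and 2 above them. It was called lower in COV504 (1.82-fold, log2 -0.86, SE 0.16, adjusted p = 0.00324), COV362 (1.78-fold) and SK-OV-3 (1.77-fold, not called by DESeq2, adjusted p = 0.0555), and higher in OVMANA (1.43-fold, adjusted p = 0.0296). The OVMANA call was lost when any 1 of the 4 IGROV-1 libraries was left out (adjusted p 0.0515 to 0.170) and with DESeq2 (0.207). By library totals alone the OVKATE difference, which was not called, turned from log2 -0.13 to 0.17. PSMB6, the caspase-like subunit, was called in SK-OV-3 alone (177 CPM against 272 and 265 in IGROV-1; log2 -0.83, SE 0.16, adjusted p = 0.00385; DESeq2 adjusted p = 0.0866). PSMB7, the trypsin-like subunit, was called higher in SK-OV-3 (313 CPM against 173 and 179) and COV362 (265 CPM) and lower in OVTOKO (114 CPM). DESeq2 called none of these 3 PSMB7 differences (adjusted p 0.178 to 0.458), and the OVTOKO call was lost when any 1 IGROV-1 library was left out (0.0665 to 0.110).

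Put as a share of the counts of all 6 catalytic genes, the immunoproteasome subunits made up 2.93% and 2.43% in IGROV-1 on the PromethION and 2.97% and 2.96% on the MinION. The share was 8.87% in OVMANA (Wilson 95% interval 7.66% to 10.2%), 12.7% in OVKATE (11.3% to 14.2%), 28.8% in SK-OV-3 (26.9% to 30.8%), 28.8% in COV362 (27.1% to 30.7%), 34.5% in COV504 (32.5% to 36.5%) and 34.9% in OVTOKO (32.8% to 37.1%). IGROV-1 was thus lowest, OVMANA and OVKATE were intermediate, and the other 4 were highest. Within these groups, the intervals of OVMANA and OVKATE did not overlap. Those of SK-OV-3 and COV362 lay below those of COV504 and OVTOKO. SK-OV-3 and COV362 did not differ beyond counting error, nor did COV504 and OVTOKO. Within the PSMB8 and PSMB5 pair, PSMB8 took 44.95% to 46.9% of the counts in those 4 highest lines, 14.3% in OVKATE and 8.94% in OVMANA. The PSMB9 share of its pair with PSMB6 reached 33.3% in COV504 and lay between 17.1% and 18.9% in OVTOKO, SK-OV-3 and COV362. OVTOKO stood apart for PSMB10, which took 39.8% of its pair with PSMB7 (34.6% to 45.1%) against 15.8% to 18.5% in OVKATE, SK-OV-3, COV362 and COV504. These shares set counts of different genes side by side, with no correction for length or capture.

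**Figure D1:**
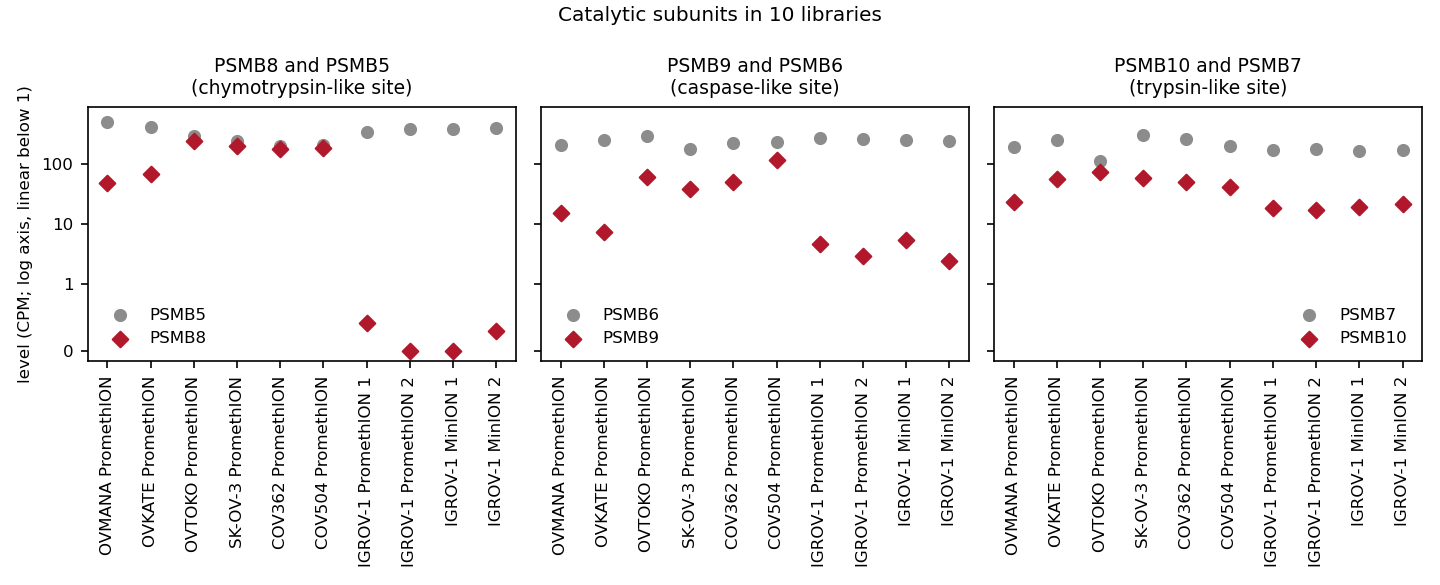
Level (CPM, log axis, linear below 1) of the 3 immunoproteasome subunits (red diamonds) and their constitutive counterparts (grey circles) in each of the 10 libraries, 1 panel per catalytic site. PSMB8 sits at or near 0 in the 4 IGROV-1 libraries and between 49.2 and 246 CPM in the other 6, while PSMB5 stays between 200.2 and 501 CPM.

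The 6 lines with PSMB8 used its 2 first exons in unequal proportion. PSMB8-201 begins at position 32844703 and PSMB8-202 begins 656 bases downstream at 32844047, at the start that carries the interferon-type letters above; they share the later exons and encode different amino termini. The coding parts of both first exons follow (GRCh38, from the GENCODE 29 transcripts, start codon in capitals).

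PSMB8-201, chr6:32844279-32844413, minus strand: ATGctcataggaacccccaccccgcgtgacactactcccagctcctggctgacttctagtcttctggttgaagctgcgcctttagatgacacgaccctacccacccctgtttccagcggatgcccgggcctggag
PSMB8-202, chr6:32843850-32843996, minus strand: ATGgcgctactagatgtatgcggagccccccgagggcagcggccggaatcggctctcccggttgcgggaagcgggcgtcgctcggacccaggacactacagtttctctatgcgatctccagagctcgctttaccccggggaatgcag

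PSMB8-202 took 86.4% of the gene's 451 counts in COV362, 79.9% of 416 in COV504, 78.4% of 425 in OVTOKO, 77.3% of 92 in OVMANA, 68.4% of 139 in OVKATE and 62.1% of 392 in SK-OV-3. The downstream first exon was the more used one in each of the 6 lines. The Wilson intervals of SK-OV-3 (57.1% to 66.7%) and COV362 (83.0% to 89.3%) did not overlap, so the share differed between these 2 libraries beyond counting error; with 1 library per line, the difference between lines has no replicate check.

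PA28 was called higher than in IGROV-1 in 4 of the 6 lines for both subunits. PSME1 (chr14:24136158-24138967, plus strand) read 1018 CPM in OVMANA, 756 in OVTOKO, 563 in OVKATE, 530 in COV504, 382 in COV362 and 351 CPM in SK-OV-3, against 276 and 213 CPM in IGROV-1 on the PromethION and 320 and 229 CPM on the MinION. IGROV-1 was again lowest without overlap, but OVMANA, intermediate in PSMB8, was highest. PSME1 was 4.34-fold higher in OVMANA (log2 2.12, SE 0.24, adjusted p = 0.000297), 3.26-fold in OVTOKO, 2.05-fold in COV504 and 1.87-fold in OVKATE. COV362 missed the threshold (log2 0.69, SE 0.25, adjusted p = 0.0534). It passed with the other scalings, the 10 CPM filter and PromethION libraries only, and without IGROV-1 PromethION replicate 1 (log2 0.64 to 0.88). SK-OV-3 did not pass (log2 0.29, SE 0.25).

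PSME2, the partner subunit encoded nearby on the other strand (chr14:24143362-24147570), read 343 CPM in OVMANA, 252 in OVKATE, 240 in COV504, 216 in OVTOKO, 161 in COV362 and 66.3 CPM in SK-OV-3, against 135 and 132 CPM in IGROV-1 on the PromethION and 136 and 122 CPM on the MinION. SK-OV-3 was the one line below IGROV-1. PSME2 was called higher in OVMANA (2.67-fold), OVTOKO and COV504 (1.70-fold in both) and OVKATE (1.53-fold), and lower in SK-OV-3 (2.36-fold, log2 -1.24, SE 0.19, adjusted p = 0.00125). With DESeq2 the PSME2 calls in OVKATE (adjusted p = 0.178), OVTOKO (0.119) and COV504 (0.0899) were lost. SK-OV-3 therefore combined 199 CPM of PSMB8 with the lowest PSME2 of the 7 lines. The nuclear activator PSME3 was called higher in OVMANA (log2 1.05) and lower in OVKATE (log2 -0.78) and COV504 (log2 -0.81). DESeq2 made none of these PSME3 calls (adjusted p = 0.189, 0.468 and 0.481). Without IGROV-1 PromethION replicate 2 or either MinION library, the falls in OVKATE (adjusted p 0.0576 to 0.0792) and COV504 (0.0644 to 0.0728) were lost too, and that in OVKATE also by library totals alone (0.13). PSME4, the large single-chain activator, passed in no line, at 9.25 to 26.7 CPM.

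In sum, the constitutive genes spanned a narrower range than the immunoproteasome genes. The 34 constitutive PSMA, PSMB, PSMC and PSMD genes, which are those of the 20S core and 19S cap and 3 chaperones of cap assembly (PSMD5, PSMD9 and PSMD10), summed to 8906 CPM in OVKATE, 8818 in OVMANA, 8610 in SK-OV-3, 8326 in COV504, 7269 in COV362, 6384 ± 136 CPM in IGROV-1 on the PromethION (mean ± SD, n = 2) and 6186 CPM in OVTOKO. The highest line lay 1.44-fold above the lowest. The 3 immunoproteasome genes spanned 17.2-fold in sum, from 22.3 ± 2.34 CPM (SD, n = 2) in IGROV-1 to 383 CPM in OVTOKO. Scaled by library totals, OVTOKO thus held the lowest sum of these constitutive genes and the highest of immunoproteasome subunits. Under that scaling the median log2 difference of all genes from IGROV-1 was 0.31 in OVKATE, 0.20 in SK-OV-3 and -0.07 in OVTOKO. The order of the constitutive sums, which are close in OVTOKO and IGROV-1, may therefore depend on the scaling.

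The SD of log2(CPM + 1) over the 7 lines, with IGROV-1 as its PromethION mean, was taken for genes averaging 10 CPM or more. Its median was 0.50 in the 46 proteasome genes and 0.65 in all 8813 genes, and 36 of the 46 lay below the median of all genes. The proteasome genes and all genes were not matched in level, and the SD includes counting noise. PSMB6 had the smallest SD (0.25, with 177 CPM in SK-OV-3 and 302 CPM in OVTOKO), followed by PSMA4 (0.29), PSMD9 (0.32), PSMA5 (0.34) and PSMC5 (0.35). PSMB8 had the largest (2.70), followed by PSMB9 (1.67), PSMG4 (0.85), PSME2 (0.77) and PSMB10 (0.73). PSMB8 spread more than 96.7% of all genes, PSMB9 more than 88.0% and PSMG4, PSME2 and PSMB10 lay within the quartiles of all genes. IGROV-1 was the lowest line for 12 of the 46 genes and the highest for none, and OVMANA was the highest for 13. The same counts over all genes are not given, so these are not read as a trait of proteasome genes. They rest on library totals, of which mitochondrial ribosomal RNA took 9.13% and 10.9% in the IGROV-1 PromethION libraries.

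**Figure D2:**
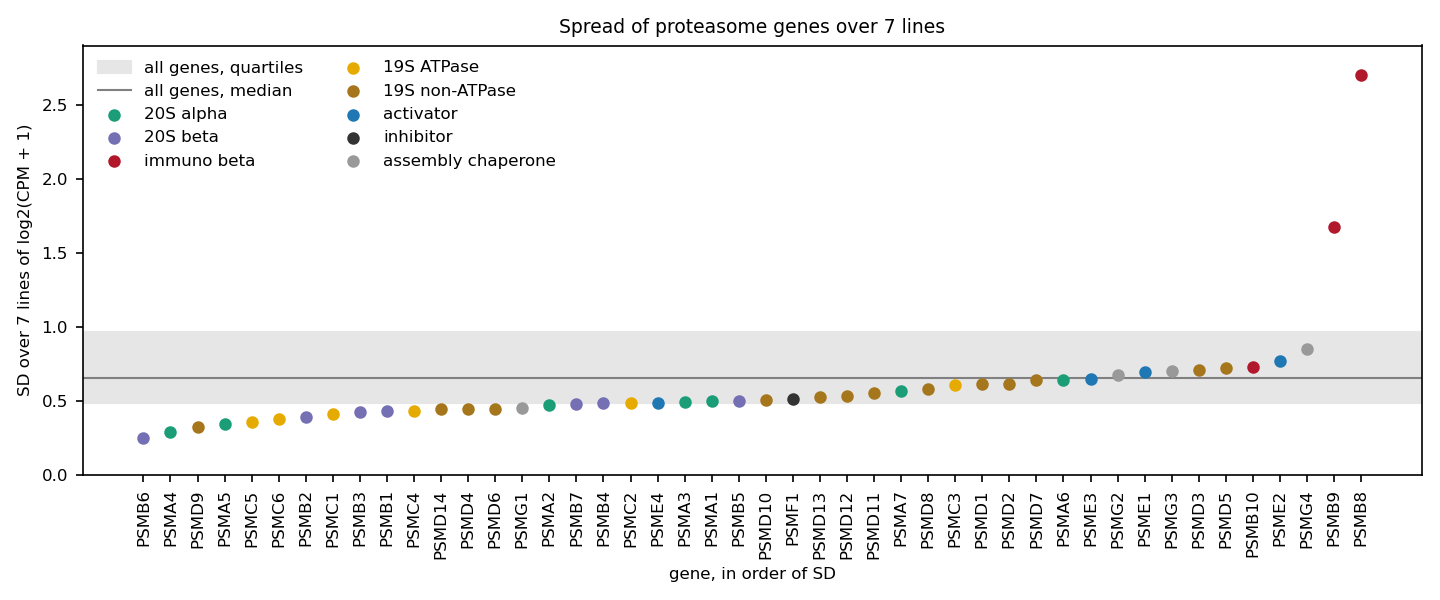
SD over the 7 lines of log2(CPM + 1) for the 46 proteasome genes averaging 10 CPM or more, in order, coloured by subunit class. The grey band runs from the lower to the upper quartile of all 8813 genes and the line their median, 0.65. PSMB9 (1.67) and PSMB8 (2.70) are the 2 points above the band.

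Gene by gene, the lines differed from IGROV-1 in both directions. Of 46 proteasome genes tested, 21 were called higher and 7 lower in OVMANA, where 35.4% of all 13030 genes were called, 18.9% higher and 16.5% lower. COV504 had 16 higher and 4 lower (43.5% of all genes, 24.0% higher and 19.6% lower). OVKATE had 13 and 8 (49.2%, with 26.8% and 22.4%) and SK-OV-3 13 and 7 (41.8%, with 22.0% and 19.8%). OVTOKO had 12 and 8 (34.1%, with 18.2% and 15.9%) and COV362 10 and 6 (42.5%, with 23.7% and 18.8%). As a share of the tested members this is 60.9% in OVMANA and 34.8% to 45.7% in the other lines. The median log2 difference of the members was 0.47 in OVMANA, 0.31 in SK-OV-3, 0.19 in COV362, 0.16 in COV504, 0.03 in OVKATE and 0.02 in OVTOKO, where that of all genes lay between -0.01 and 0.04. DESeq2 called fewer members and fewer genes. It called 6 members in OVTOKO (11.9% of all genes with an adjusted p), 7 in COV362 (13.8%), 8 in OVMANA (12.3%), 8 in SK-OV-3 (14.2%), 11 in COV504 (15.1%) and 11 in OVKATE (18.0%). In OVTOKO 13 to 17 members were called when 1 IGROV-1 library was left out, with 13 without MinION replicate 1, where 22.2% of all genes were called. Scaling by library totals alone put the median of all genes at 0.31 in OVKATE and 0.20 in SK-OV-3 (log2). The split in OVKATE became 18 higher and 5 lower (49.4% of all genes, 33.7% higher and 15.7% lower). That in SK-OV-3 became 27 higher and 7 lower (42.1%, with 27.2% and 15%).

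Among the alpha subunits, PSMA7 was called higher in each of the 6 lines. It read 464 and 440 CPM in IGROV-1 on the PromethION and 597 and 546 CPM on the MinION, against 687 CPM in OVTOKO, 798 in COV362, 1061 in SK-OV-3, 1169 in OVKATE, 1223 in COV504 and 1352 CPM in OVMANA. All 6 lines lay above all 4 IGROV-1 libraries, from 1.60-fold in OVTOKO (adjusted p = 0.0125, and 0.0524 without IGROV-1 PromethION replicate 2) to 3.12-fold in OVMANA (log2 1.64, SE 0.16, adjusted p = 0.000121). PSMA6 read 196 and 142 CPM in IGROV-1 on the PromethION and 509 CPM in OVMANA, 433 in OVKATE, 345 in OVTOKO and 397 CPM in SK-OV-3, and was called higher in these 4 lines by 1.93-fold to 3.06-fold. COV362 and COV504 (197 and 198 CPM) did not pass (log2 0.23 and 0.18), and the COV504 value was -0.02 without IGROV-1 PromethION replicate 2. PSMA3 fell by 1.11 on the log2 scale in OVKATE (130 CPM against 240 and 214) and PSMA2 by 1.11 in SK-OV-3 (184 CPM against 346 and 330). PSMA3 was also called lower in COV362 (log2 -0.81), and PSMA4 in OVMANA (173 CPM against 305 and 272). DESeq2 made neither of these last calls. That of PSMA4 was also lost without PromethION replicate 1 or MinION replicate 1 of IGROV-1.

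Among the beta subunits, PSMB1 was called higher in 5 lines, with SK-OV-3 highest at 583 CPM (2.04-fold), and not in OVKATE (321 CPM against 251 and 238; log2 0.09, SE 0.17). The PSMB1 call in OVTOKO (log2 0.52, adjusted p = 0.0472) was lost with DESeq2 (0.242), by library totals alone (0.0528), with no filter (0.0911) and without either PromethION library or MinION replicate 1 of IGROV-1 (0.0633 to 0.135). That in OVMANA was lost with DESeq2 (0.122) and without PromethION replicate 2 (0.0624). PSMB4 was higher in COV362 (913 CPM against 569 and 583; log2 0.71) and lower in OVTOKO (325 CPM; log2 -0.75, DESeq2 adjusted p = 0.0514). PSMB3 rose in OVMANA (394 CPM against 193 and 184; log2 1.12).

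Of the ATPases, PSMC3 was called higher in 4 lines. It read 75.2 and 69.6 CPM in IGROV-1 on the PromethION and 58.9 and 60.6 CPM on the MinION, against 234 CPM in COV504, 200 in OVKATE, 162 in COV362, 117 in SK-OV-3, 109 in OVMANA and 93.1 CPM in OVTOKO. No line overlapped IGROV-1. The difference passed in COV504 (3.06-fold, log2 1.61, SE 0.15, adjusted p = 9.23e-05), COV362 (2.30-fold), OVKATE (log2 1.17) and OVMANA (1.57-fold), and missed the threshold in SK-OV-3 (adjusted p = 0.0506) and OVTOKO (0.0788). SK-OV-3 passed it with the other scalings and the 10 CPM filter (0.00908 to 0.0315). The OVMANA call was lost with DESeq2 (0.315) and without IGROV-1 PromethION replicate 2 (0.0633) or MinION replicate 1 (0.0514). PSMC4 rose in OVMANA (234 CPM against 133 and 134; DESeq2 adjusted p = 0.0796) and fell in SK-OV-3 (82.6 CPM; log2 -0.92, DESeq2 adjusted p = 0.121). PSMC6 was called lower in COV362 (63.1 CPM against 108 and 111, log2 -0.75), but not by DESeq2.

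Among the 14 non-ATPase genes, the largest rise in COV504 was PSMD13 (204 CPM against 72.2 and 68.7; 2.74-fold, adjusted p = 0.000209), with PSMD12 at 2.16-fold. In OVKATE PSMD2, a scaffold subunit of the base, read 354 CPM against 117 and 129 (2.33-fold), with PSMD12 at 2.29-fold and PSMD14, the deubiquitinase of the lid, at 325 CPM against 141 and 123. PSMD5, an assembly chaperone of the base, read 12.8 CPM in OVMANA and 14.5 CPM in OVTOKO against 33.7 and 45.5 CPM in IGROV-1 and 32.4 to 45.8 CPM in the other 4 lines. The PSMD5 calls (log2 -1.56 and -1.37) were both lost with DESeq2 (adjusted p = 0.175 and 0.265) and without IGROV-1 MinION replicate 1 (adjusted p = 0.0514 in OVMANA and 0.0667 in OVTOKO), and that in OVTOKO also without MinION replicate 2 (0.0569). PSMD10, or gankyrin, fell by 1.08 in OVMANA on the log2 scale (31.0 CPM against 69.2 and 67.4; DESeq2 adjusted p = 0.236), and PSMD3 rose in SK-OV-3 (251 CPM against 85.9 and 113; log2 1.10).

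PSMF1, the inhibitor PI31, read 83.7 and 84.6 CPM in IGROV-1, 139 CPM in COV504 (log2 0.64, called higher; DESeq2 adjusted p = 0.342) and 45.4 CPM in COV362 (log2 -0.85, called lower; DESeq2 adjusted p = 0.287). Of the chaperones that assemble the alpha ring, PSMG2 was highest in OVKATE (210 CPM against 67.5 and 52.4; 2.84-fold, adjusted p = 0.000306). PSMG4 was low in OVMANA (12.3 CPM) and OVKATE (20.3 CPM) against 41.9 and 41.2 CPM, and PSMG3 in SK-OV-3 (28.4 CPM) and OVTOKO (30.1 CPM) against 65.4 and 64.9 CPM. PSMG1 was called in SK-OV-3 alone (104 CPM against 44.4 and 41.2; log2 1.05). DESeq2 did not call the PSMG1, PSMG3 and PSMG4 differences (adjusted p 0.0658 to 0.285).

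**Figure D3:**
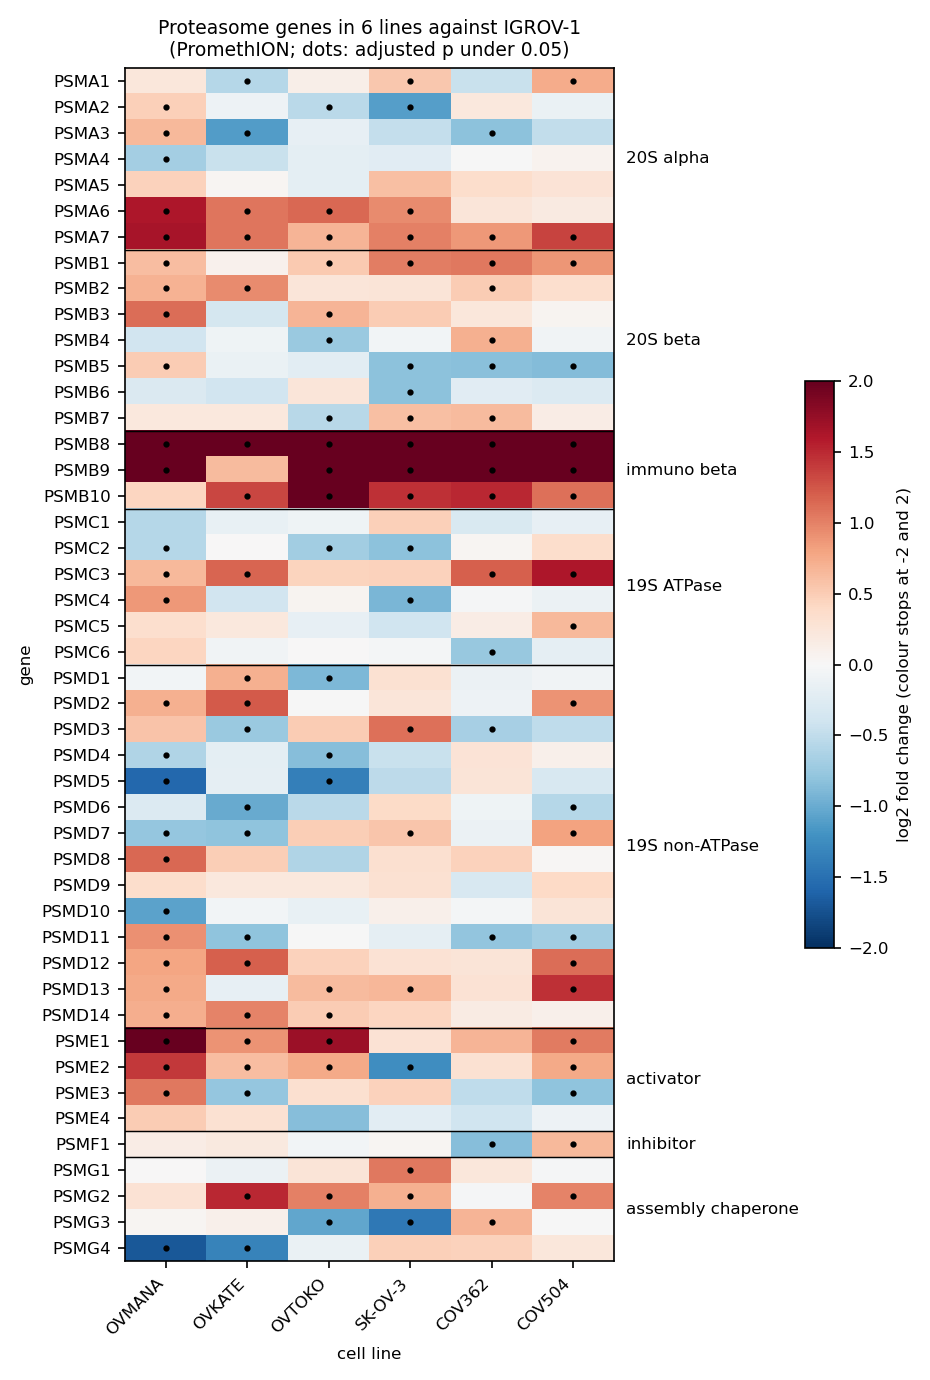
Log2 fold change of the 46 tested proteasome genes (rows, by subunit class) in each of 6 lines (columns) against the 2 IGROV-1 PromethION libraries, from edgeR; red is higher and blue lower in the line, colour stops at -2 and 2, and a dot marks an adjusted p under 0.05. PSMB8 and PSMA7 are dotted in all 6 columns, and OVMANA holds the most dots, 28.

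Position was shared by some genes that rose and fell together. Among the 46 genes, Spearman correlations of log2(CPM + 1) across the 7 lines had a median of 0.11 over 1035 pairs, and of 0.14 over the 561 pairs of the 34 constitutive genes. The 15 pairs of genes that start within 10 Mb of each other had a median of 0.68 and 14 of the 15 were positive. Of the 1020 pairs farther apart or on different chromosomes, 592 were positive, with a median of 0.11. Neighbouring pairs among all genes are not given, so this is not read as particular to proteasome genes. The 15 close pairs overlap in their genes. Each value rests on 7 lines, with 1 line the mean of 2 libraries, so the correlations are given as a description. On chromosome 17, PSMD11 and PSMD3 (rho 0.89) and PSMD3 and PSME3 (0.86) rose and fell over the same lines: PSMD11 read 310, PSMD3 142 and PSME3 99.9 CPM in OVMANA, and 96.8, 61.1 and 34.5 CPM in COV362. Other close pairs were PSME1 and PSME2 (0.86), PSMB4 and PSMD4 on chromosome 1 (0.82) and PSMB8 and PSMB9 (0.79). PSMC4 and PSMD8 on chromosome 19 were the exception (-0.18). DNA copy number was not analysed here.

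**Figure D4:**
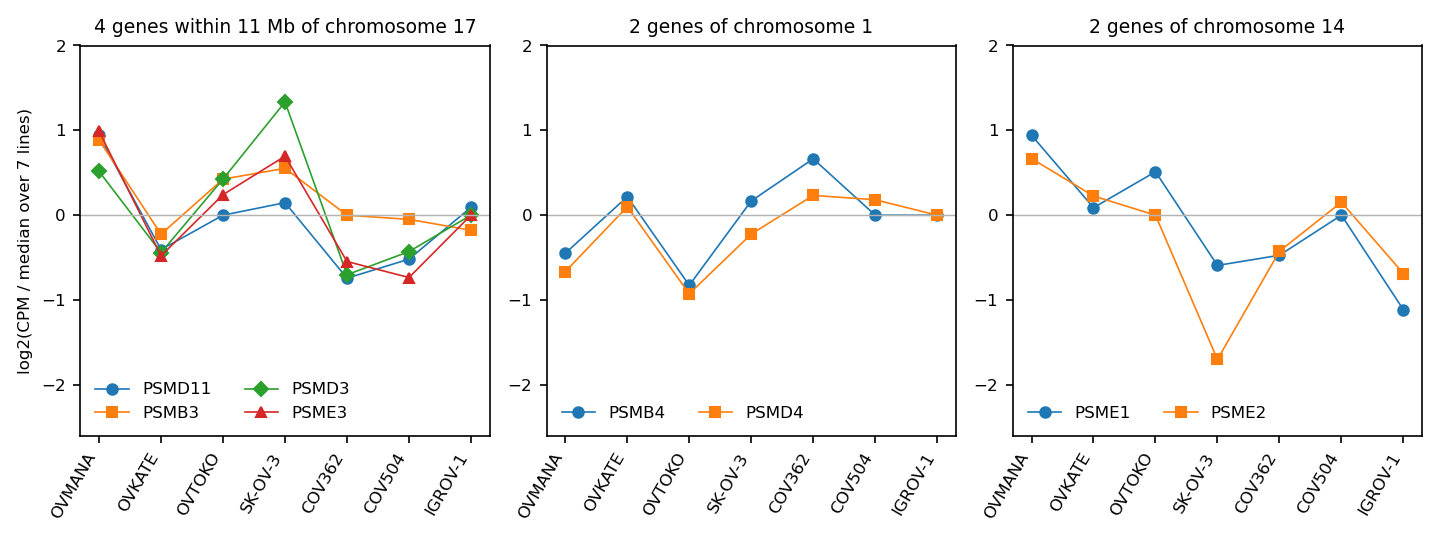
Log2 of CPM over the gene's median of the 7 lines for neighbouring genes, by line: PSMD11, PSMB3, PSMD3 and PSME3 of chromosome 17 (left), PSMB4 and PSMD4 of chromosome 1 (middle), PSME1 and PSME2 of chromosome 14 (right). The 4 chromosome 17 genes lie above their medians in OVMANA. In COV362 PSMD11, PSMD3 and PSME3 lie below theirs and PSMB3 at its own, and in SK-OV-3 PSME1 and PSME2 both lie below theirs, PSME2 (66.3 CPM) at its lowest of the 7 lines.

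The other genes of the pathway were read from 4 lists. Of 18 tested genes of interferon signalling and antigen loading, 16 were higher and 0 lower in COV504, 15 and 0 in OVTOKO and 14 and 1 in SK-OV-3. The counts were 12 and 1 in COV362, 10 and 0 in OVKATE and 9 and 3 in OVMANA. Of all 13030 genes, 18.2% to 26.8% were called higher and 15.9% to 22.4% lower per line. The list median ran from 0.63 in OVMANA to 2.11 in COV504 on the log2 scale, beside medians of all genes between -0.01 and 0.04. JAK1, a kinase of the interferon receptors, read 5.98 and 4.30 CPM in IGROV-1 on the PromethION, 5.73 and 5.56 CPM on the MinION and 37.6 to 119 CPM in the other lines. TAP1, the peptide transporter encoded next to PSMB9, read 14.1 and 17.2 CPM against 21.3 CPM in OVKATE and 119 CPM in COV504. TAP1 and PSMB9 both missed the threshold in OVKATE (adjusted p = 0.693 for TAP1). B2M, the light chain of class I molecules, read 553 CPM in OVMANA against 627 and 563 CPM in IGROV-1 and missed the threshold there (adjusted p = 0.91).

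Leukocytes carry the immunoproteasome without induction, so their markers are given beside these values. Of 10 leukocyte markers, CD3E and MS4A1 were at 0 in all 10 libraries and PTPRC reached at most 0.445 CPM, in COV504. The list summed to at most 2.61 CPM in the IGROV-1 libraries and to 8.55 CPM in OVMANA, 15.5 in SK-OV-3, 67.7 in OVTOKO, 73.2 in OVKATE, 121 in COV504 and 165 CPM in COV362. CD74 led it in COV362 (135 CPM), COV504 (112 CPM) and OVKATE (54.9 CPM), and CD68 in OVTOKO (65.95 CPM). Both are also known from non-leukocyte cells, and their part in the PSMB8 difference was not tested.

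Of 10 proteasome-associated genes tested, 6 were higher and 0 lower in COV504, 5 and 2 in SK-OV-3 and 4 and 2 in OVKATE. OVMANA had 2 and 0, OVTOKO 2 and 1 and COV362 1 and 1. ADRM1, a ubiquitin receptor of the cap, read 87.1 and 101 CPM in IGROV-1 and 273 CPM in OVMANA (log2 1.60, adjusted p = 0.000176). POMP, which matures the core, was higher in SK-OV-3, COV504 and OVKATE. Of 7 regulators of subunit transcription, at most 1 was higher and at most 3 lower in any line, and NFE2L1 passed in COV504 alone (155 CPM against 73.9 and 88.1; log2 0.86, adjusted p = 0.0214). Of 14 genes that supply and deliver ubiquitin, 2 to 6 were higher and 2 to 7 lower per line. Over all genes, 34.1% (OVTOKO) to 49.2% (OVKATE) were called per line, so the counts of these lists are not read as results about the pathway. UBA1, the enzyme that activates ubiquitin, was called lower in each of the 6 lines (182 to 315 CPM against 402 and 414 CPM).

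Between instruments, the number of proteasome genes called in IGROV-1 turned on whether the replicate number was a term in the fit. Without it, edgeR's quasi-likelihood test called 0 of 45 proteasome genes and 82 of 10041 genes in all (0.817%, with 0.11% higher and 0.707% lower on the MinION); DESeq2 also called 0 (0.647% of all genes), and 5 of the 45 had an unadjusted p under 0.05. With the replicate number as a block, 11 of the 45 were called, 9 higher and 2 lower, beside 19.7% of all genes (10.1% higher and 9.56% lower). The labels do not say whether same-numbered libraries share RNA. Over 10041 genes, same-numbered libraries correlated at 0.367 in their deviations from the instrument means of log2 CPM. Among single marker genes, KRT18 read 263 and 1041 CPM in PromethION replicates 1 and 2, and 244 and 1080 CPM in MinION replicates 1 and 2. COL1A1 read 6.41 and 22.8 CPM and 4.91 and 22.9 CPM in the same order. KRT8, from the same marker lists, went in opposite directions on the PromethION and the MinION. It read 6.41 and 5.15 CPM in PromethION replicates 1 and 2. On the MinION it was higher in replicate 2 (11.4 CPM) than in replicate 1. These are single genes and not a survey of the lists. Whether the replicates are paired was not tested. PSMD2 was nearest, at 117 and 129 CPM on the PromethION and 83.7 and 86.5 CPM on the MinION (log2 -0.58, SE 0.13, adjusted p = 0.0959). The median log2 difference was 0.07 in the members and 0.00 in all genes, and the median size of the difference 0.11 and 0.22.

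The split of a gene's counts over its transcripts did differ. The usage test of edgeR (diffSpliceDGE, Simes p adjusted over 2979 genes, of which 178 or 5.98% were called) called 4 of the 22 proteasome genes it could test. For PSMD8, a subunit of the lid, the transcript ENST00000602911 begins 223 bases after ENST00000215071 within the same first exon and lacks 189 coding bases. That stretch is shown with the start codons of both forms in capitals, because these bases separate the 2 coding sequences.

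PSMD8, chr19:38374602-38374793, plus strand: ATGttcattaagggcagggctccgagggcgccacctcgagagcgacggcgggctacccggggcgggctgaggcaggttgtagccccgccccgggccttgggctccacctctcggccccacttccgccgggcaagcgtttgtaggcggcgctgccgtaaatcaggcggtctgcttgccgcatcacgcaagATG

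ENST00000602911 took 39.1% (Wilson interval 35.2% to 43.1%) and 35.6% (31.6% to 39.9%) of PSMD8 counts in IGROV-1 on the PromethION, and 87.6% (85.5% to 89.4%) and 92.1% (90.1% to 93.8%) on the MinION. In the other 6 lines, all on the PromethION, it took 34.0% to 39.2%. The 8 PromethION libraries thus lay together whatever the line, and both MinION libraries stood above them (adjusted p = 0.000373). In all 8 PromethION libraries the estimates of ENST00000215071 and ENST00000602911 lay within a ratio of 1.00 to 1.07 of each other, against 0.0878 and 0.0512 on the MinION. The gene's summed level did not pass the instrument test.

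PSMC6, an ATPase, was called too, with transcripts that differ at both ends. ENST00000606149 begins 32 bases after ENST00000445930 and ends at 52727991 against 52728587. The leading form, ENST00000612399, ends at 52727995. ENST00000606149 took 7.30% and 6.71% of the gene's counts in IGROV-1 on the PromethION and 34.0% and 18.01% on the MinION. In the other lines it took 5.67% to 11.8% (usage test, adjusted p = 0.0151). In PSMA4, an alpha subunit, ENST00000559082 has a shorter first exon and a shorter last exon than ENST00000044462. It is 1094 bases long against 4411, and the coding length is the same. ENST00000559082 took 7.25% and 7.54% in IGROV-1 on the PromethION and 19.95% and 19.5% on the MinION. In the other lines it took 4.21% to 15.3% (usage test, adjusted p = 0.0397). In PSMC1, another ATPase, ENST00000543772 skips a coding exon of 97 bases. Its last exon is also shorter, ending at 90272550 against 90275429 in ENST00000261303 (1389 and 4448 bases long). ENST00000543772 took 10.4% and 7.63% of counts on the MinION and at most 2.07% in any PromethION library (usage test, adjusted p = 0.00975). Which of these structural differences went with the shift in share was not tested. The skipped exon reads as follows.

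PSMC1 exon, chr14:90260115-90260211, plus strand: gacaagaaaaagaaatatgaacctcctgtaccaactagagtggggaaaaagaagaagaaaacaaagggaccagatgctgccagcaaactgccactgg

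PSMD8 stayed called when any 1 of the 4 libraries was left out (adjusted p 0.00246 to 0.0122). Without PromethION replicate 1 or 2 the other 3 calls were all lost (adjusted p 0.172 to 0.263). Without MinION replicate 1 they were lost too (0.128 to 0.148), and without MinION replicate 2 PSMC6 held (0.00421) while PSMC1 (0.0848) and PSMA4 (0.105) did not.

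**Figure D5:**
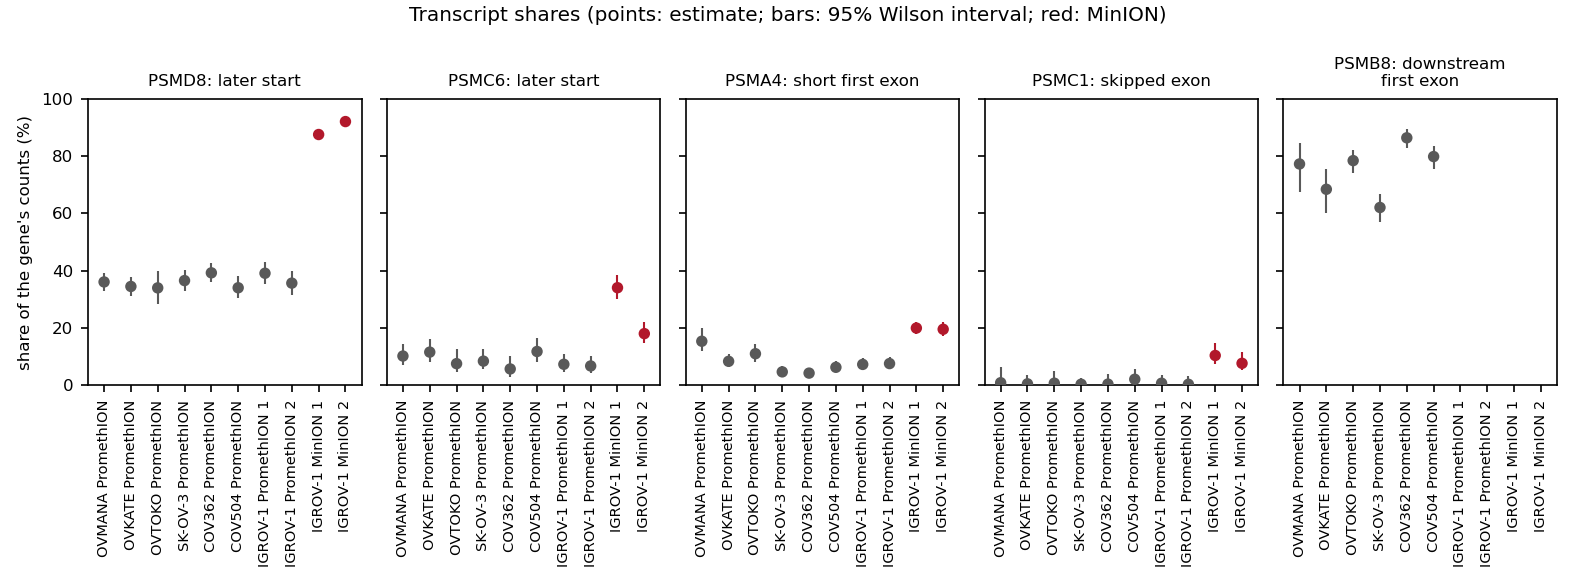
Share of a gene's counts (percent) taken by the named transcript in each library with at least 50 counts of the gene, with 95% Wilson intervals; MinION libraries are red. The PSMD8 share lies at 34.0% to 39.2% in the 8 PromethION libraries and at 87.6% and 92.1% in the 2 MinION libraries. The PSMB8 panel has no IGROV-1 points. The PSMC6, PSMA4 and PSMC1 transcripts also end earlier than ENST00000445930, ENST00000044462 and ENST00000261303 of the same genes.

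Most other genes were led by 1 transcript everywhere. Among 34 genes with at least 50 counts in every library and more than 1 transcript, 24 had a leading transcript with at least 90% of the counts in every library. The leading transcript differed between libraries in 5: PSMC2, PSMC3, PSMD8, PSME3 and PSMG3. For PSMC2, an ATPase, ENST00000435765 with an added upstream first exon took 55.6% (50.1% to 60.6%) in OVKATE and 17.2% (12.2% to 23.7%) in OVMANA, against 36.9% and 38.9% in IGROV-1 on the PromethION and 25.2% and 26.1% on the MinION; the coding length is the same. The intervals of OVKATE and OVMANA did not overlap. In PSMC3 the 2 leading transcripts had equal estimates, to 3 digits, in 6 of the 8 PromethION libraries.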

How the data were processed

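The deposited files give, per transcript and library, estimated counts and TPM. The authors' deposited TPM equal each count over the library total, scaled to 1000000, and are not divided by length, so levels were computed as CPM from the deposited estimated counts. Reads were aligned with minimap2 2.24-r1122 to GRCh38, per the submitters' processing notes. Strand use, filters and quantification settings: not given in the sources used here. Counts were summed per gene identifier and rounded for edgeR 4.0.16 (TMM scaling, filterByExpr, quasi-likelihood test, Benjamini-Hochberg adjustment at 0.05 over all genes) in R 4.3.3; DESeq2 1.42.0 was an alternative. The line comparisons were fitted over all 10 libraries. The instrument and usage tests were fitted over the 4 IGROV-1 libraries. Tested on simulated data, the line test recovered 44.5% of log2 changes of 1 and 90.5% of changes of 2 (13030 genes), the instrument test 75.5% of changes of 1 (10041 genes). Members and gene lists were chosen with earlier results of these data known. Genes were named by rule: the catalytic and immunoproteasome subunits, PSME1 and PSME2, up to 5 called rises and 5 called falls per comparison, all usage calls, the 5 largest and 5 smallest spreads, members without counts and joined members. A further 25 comparisons of a gene in a line were described after their values were seen and recomputed under the same alternatives: PSMA6, PSMA7, PSMB1, PSMC3 and PSME3 in further lines, PSMB3 and PSMC4 in OVMANA, PSMD14 in OVKATE, PSMB4 in COV362 and PSMD12 and PSMF1 in COV504. The neighbouring genes, and levels or fits given without a call (PSMD2 between instruments, PSME4), were also chosen so. Intervals and floors (3 counts) cover counting error only. They take estimated counts as observed reads and leave out error in assigning reads to transcripts. Structures are from GENCODE 29. Replicate counts differed by more than sampling noise (chi-square per degree of freedom 4.36 on the PromethION and 6.73 on the MinION).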

Additional observations from a re-analysis of the deposited data

How the results depend on the processing

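For 111 comparisons of single genes between a line and IGROV-1, 1221 values were recomputed under alternative settings: 1123 kept their side of the threshold, 89 lost a call (45 of these with DESeq2) and 9 gained one. No called difference changed sign; 2 that were not called did, PSMB5 in OVKATE (0.17 by library totals alone) and PSMA6 in COV504 (-0.02 without IGROV-1 PromethION replicate 2). DESeq2 gave 8 called members in OVMANA (28 with edgeR), 8 in SK-OV-3 (20), 6 in OVTOKO (20), 7 in COV362 (16), 11 in COV504 (20) and 11 in OVKATE (21), where it called 11.9% to 18.0% of all genes and edgeR 34.1% to 49.2%; library totals alone gave 34 in SK-OV-3 (42.1% of all genes). Leaving out 1 IGROV-1 library gave 13 to 17 called members in OVTOKO, with 13 without MinION replicate 1, and 1 to 2 usage calls in place of 4. Splitting joined identifiers, added after seeing the data, gave 16 to 28 called members per line. The instrument comparison gave 0 called members under all settings but the replicate block, which gave 11 (9 higher, 2 lower; 19.7% of all genes); same-numbered IGROV-1 libraries correlated at 0.367 in their deviations over genes, and the labels give no pairing. The block gave 5 usage calls. The shares of all genes are not given for the split identifiers or for usage under the block or with a library left out. They are also missing for the other line fits with a library left out. These counts are therefore not read as results about the members. The other lines have 1 library each and could not be paired with IGROV-1. The line comparisons were fitted without a replicate term, so their p-values take the IGROV-1 libraries as independent. PSMB8 against PSMB5 alone gave immunoproteasome shares of 14.3% in OVKATE, 45.1% in OVTOKO, 44.95% in SK-OV-3, 46.9% in COV362, 46.5% in COV504, 0.0614% in IGROV-1 on the PromethION and 0.0385% on the MinION; transcripts of at least 5 counts gave 2.95% on the MinION. With at least 100 counts, 3 genes changed their leading transcript. The spread of members (median 0.50 to 0.51) moved little under its 6 alternatives. Depth limits PSMB8 in IGROV-1 (1 count per instrument).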
